A study of Mus musculus with 12 samples.

Results

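The SLC25 family comprises the carrier proteins that move nucleotides, cofactors, amino acids, carboxylates, phosphate and metal ions across the inner mitochondrial membrane, with a few members in the outer membrane or in peroxisomes. The members described here are the genes of the deposited table whose symbol starts with Slc25a, without the malate-aspartate carriers Slc25a11, Slc25a12 and Slc25a13 and without pseudogenes. The rule gave 44 of the 56748 genes in the table, out of 48 symbols of that form. Of these 44 genes, 38 had a mean of at least 10 reads in 1 or more of the 4 groups, and Slc25a2, Slc25a31, Slc25a41, Slc25a43, Slc25a48 and Slc25a54 did not.

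The carriers share a fold of repeated transmembrane units and are encoded in the nucleus, translated in the cytosol and inserted into the inner membrane by the TIM22 import machinery. Rod photoreceptors pack their mitochondria into the inner segment, where oxidative phosphorylation supplies ATP for the ion pumps of the dark current and where the ADP/ATP and phosphate carriers link the matrix to the cytosol. Pyruvate kinase M2 (PKM2) catalyses the last step of glycolysis, which delivers pyruvate to these mitochondria.

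RNA was measured in rods and in retina of littermate mice. Control mice were RiboTag;Pkm2fl/+;i75-Rod-Cre, with 1 floxed Pkm2 allele, and Pkm2Rodko mice were RiboTag;Pkm2fl/fl;i75-Rod-Cre, with both alleles floxed. Both genotypes were homozygous for Ribo-Tag and carried the rhodopsin-driven Cre, which tags the ribosomal protein Rpl22 in rods, so the control mice carried the Cre and a floxed allele as well. Polyribosome-bound RNA was pulled down after cycloheximide and flash freezing (translating ribosome affinity purification, called rods here), and the RNA of the lysate before pulldown is called retina. There were 3 libraries in each of the 4 groups. The series description gives an age of 2 weeks and the methods give 2 months. The labels do not say whether libraries came from separate animals, so the p-values measure the spread between these libraries.

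The libraries held between 13458890 and 22790074 reads. Pkm, the gene carrying the floxed exon, had 66618, 65101 and 70318 scaled reads in the control rods and 30486, 28578 and 28253 in the Pkm2Rodko rods. In retina it had 26619, 28897 and 26666 scaled reads in controls and 16978, 17094 and 17531 in Pkm2Rodko. The libraries match their genotype labels at this gene, and Pkm1 and Pkm2 cannot be told apart in gene totals. All 20 rod markers were higher in control rods than in control retina, with a median log2 difference of 1.91. Most markers of other retinal cells were lower, with medians of −2.76 for Müller glia, −3.12 for amacrine cells, −3.06 for bipolar cells and −0.70 for cones, and none of these lists summed to 0 in any rod library. Retina also contains the rods, and in these bulk samples fewer cells of a type and less RNA per cell cannot be told apart. The rod libraries hold polyribosome-bound RNA and the retina libraries lysate RNA, so RNA level in rods and ribosome binding cannot be told apart.

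Levels between genes are compared as RPKM, which divides TMM-scaled reads by exon length in kilobases and by library size, and levels of 1 gene between libraries as scaled reads, meaning reads put on a common scale over all 12 libraries with the trimmed mean of M-values (TMM). In control rods the highest members were Slc25a5 and Slc25a4, the ADP/ATP carriers 2 and 1, at 327 ± 9.9 and 248 ± 26 RPKM (SD, n = 3). Slc25a33, a pyrimidine nucleotide carrier, followed at 104 ± 6.5 and Slc25a3, the phosphate carrier, at 65.0 ± 3.5. Slc25a25, an ATP-Mg/phosphate carrier regulated by calcium, stood at 38.7 ± 0.51. The next members lay closer together, with the branched-chain amino acid carrier Slc25a44 at 25.6 ± 0.99, the ATP-Mg/phosphate carrier Slc25a23 at 22.4 ± 1.0 and the glutamate carrier Slc25a22 at 20.8 ± 0.82. The intervals of 1 SD around Slc25a23 and Slc25a22 overlapped, and those of the 6 higher members did not.

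In control retina the order differed at the top. Slc25a4 stood above Slc25a5, at 172 ± 6.4 against 124 ± 4.0 RPKM (SD, n = 3), and Slc25a23 ranked 4 at 38.4 ± 1.9 where it had ranked 7 in control rods. Slc25a25 ranked 5 in control rods and 8 in control retina, where it stood at 16.4 ± 1.5 RPKM. The Pkm2Rodko libraries kept the same members at the top 6 ranks of rods and the top 8 ranks of retina.

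**Figure D1:**
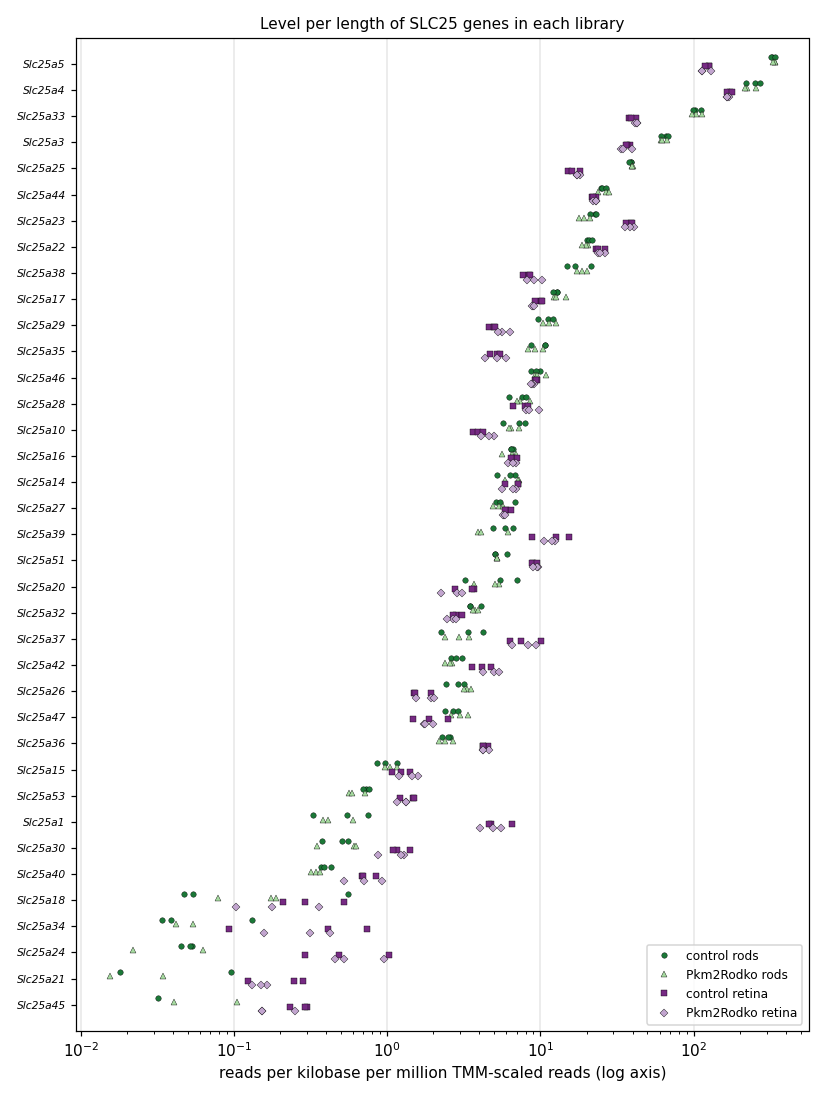
Level per length (log axis, RPKM from TMM-scaled reads) of SLC25 genes with a mean of at least 10 reads in 1 or more groups, each point being 1 library and libraries at 0 left off. Rods (circles control, triangles Pkm2Rodko) and retina (squares control, diamonds Pkm2Rodko) separate for genes such as Slc25a5, Slc25a33 and Slc25a1, while the genotypes within a fraction lie together.

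The family as a whole took a similar share of total reads in each group, which is not the TMM scale of the tests. TMM factors were 0.81 to 0.85 in rods and 1.20 to 1.24 in retina, so TMM raises rods against retina. The family sum by TMM was not computed. In RPM, the share of a library's total reads without correction for length, its members summed to 2362 ± 65.3 in control rods, 2285 ± 76.4 in Pkm2Rodko rods, 2457 ± 62.4 in control retina and 2463 ± 56.3 in Pkm2Rodko retina (SD, n = 3). The make-up of that sum differed between the fractions. Slc25a3, Slc25a4, Slc25a5 and Slc25a31 took 52.0% ± 0.91 of the family's reads in control rods and 40.3% ± 0.73 in control retina, and 51.6% ± 0.81 and 39.0% ± 0.97 in the Pkm2Rodko fractions. The ranges did not overlap between fractions, with 50.9% as the lowest rod library and 41.1% as the highest retina library. The mitoferrins Slc25a28 and Slc25a37, which import iron, took 1.64% ± 0.26 in control rods and 3.79% ± 0.42 in control retina.

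Rod pulldown RNA was compared with retina lysate RNA for each carrier with limma over all genes on log2(scaled reads + 1). In control mice 15 of the 43 members tested were higher in rods at an adjusted p under 0.05 and 17 were lower, where 23.5% and 35.5% of all 25584 genes were. Slc25a48, a carrier linked to choline, had 0 reads in all 12 libraries and was not tested. The members' median log2 difference was −0.23 and that of all genes −0.37. In Pkm2Rodko mice 15 members were higher and 19 lower, against 23.9% and 35.1% of all genes, with medians of −0.33 and −0.32. The same 15 members were higher in both genotypes and the same 17 were lower, and none went opposite ways. Slc25a41 and Slc25a54 passed the test in Pkm2Rodko mice and not in control mice, where they gave −0.48 and −0.73, and the test of the difference between genotypes did not pass (limma adjusted p = 0.978 and 0.993). In control mice the rod and retina libraries did not overlap for 13 members that were higher in rods and 16 that were lower, where 25.2% and 36.6% of all genes did not (61.8% together). In Pkm2Rodko mice these were 16 and 21 members, where 26.3% and 36.7% of all genes did not overlap (63.0% together).

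These counts depend on how the fractions are put on 1 scale. Scaling by total reads shifted the median of all genes in control mice from −0.37 to −0.76, and then 7 members were higher and 24 lower, with 6 and 26 in Pkm2Rodko mice. The share of all genes called under this scaling is not given here. These counts therefore cannot be told apart from the shift of all genes. The 4 scalings tried were TMM, total reads, median-of-ratios over all 12 libraries and the deposited values. Slc25a3, Slc25a5, Slc25a25, Slc25a29, Slc25a33 and Slc25a38 were called higher in both genotypes under each of the 4, and Slc25a35 in control mice. All 17 members lower in both genotypes were called lower under each of the 4. The deposited values do not put the fractions on 1 scale and shifted the differences much as total reads did. In control mice Slc25a5 gave 0.81 by the deposited values and 0.85 by total reads. The 4 scalings are therefore not separate checks. Slc25a4, Slc25a17, Slc25a32 and Slc25a44 were higher by TMM and negative by total reads in both genotypes.

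**Figure D2:**
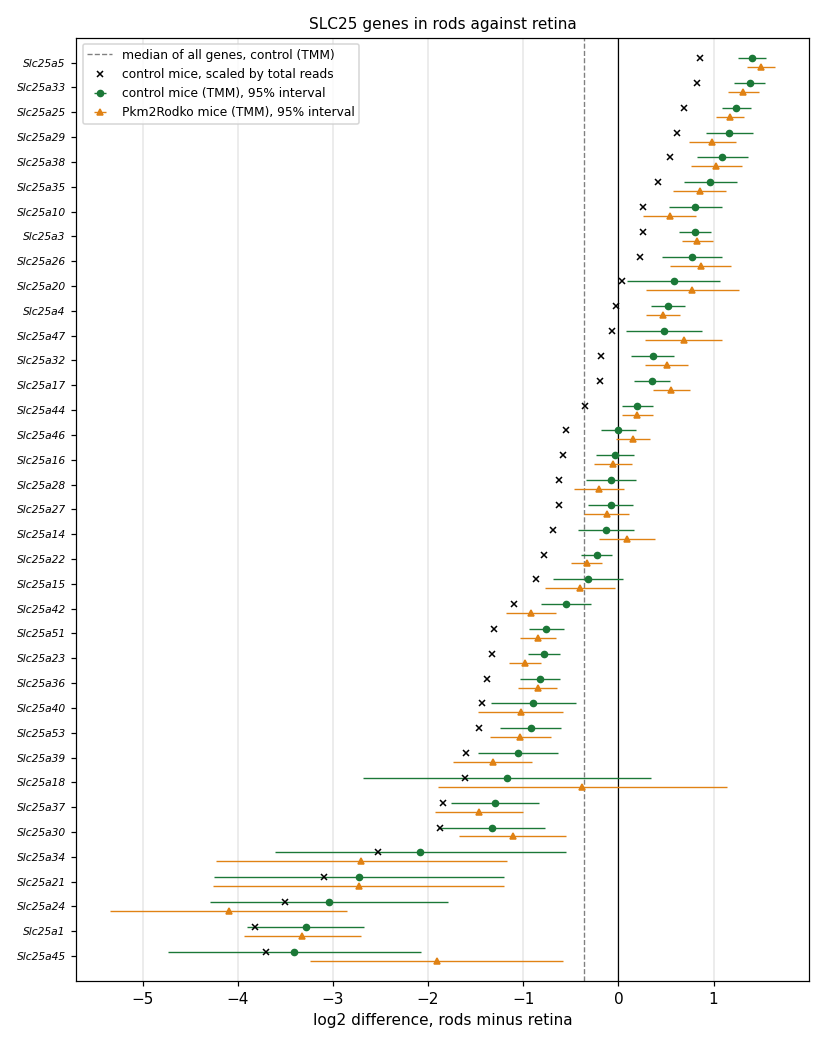
The log2 difference of rods minus retina for the genes in the plot of levels, with circles for control mice, triangles for Pkm2Rodko mice and bars for 95% intervals, all scaled by TMM, and crosses for control mice scaled by total reads. In control mice Slc25a5 lies highest at 1.41 and Slc25a45, with 1 read over the control rods, lowest, the dashed line marks the median of all genes (−0.37), and the crosses lie to the left of the circles throughout.

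Among the carriers that exchange ADP for ATP and import phosphate, the expressed members were all higher in rods. Slc25a5 had 9701, 9452 and 10037 scaled reads in the control rods and 3748, 3733 and 3537 in control retina. The Pkm2Rodko libraries had 10039, 10137 and 9737 in rods and 3846, 3374 and 3369 in retina. Every rod library lay far above every retina library. The log2 difference was 1.41 ± 0.07 (SE) in control mice, a 2.65-fold difference (limma adjusted p = 1.97e-10), and 1.501 ± 0.07 in Pkm2Rodko mice (limma adjusted p = 7.37e-11). Slc25a5 shares 33.8% of its 50-base stretches with other genes, mostly processed pseudogenes, whose rows held 1712 reads in rods beside 47255 for Slc25a5, and the counting rule for such reads is not stated. Slc25a3 differed by 0.81 ± 0.08 in control mice (limma adjusted p = 2.31e-07) and Slc25a4 by 0.52 ± 0.08 (limma adjusted p = 6.31e-05), although Slc25a4 gave −0.029 by total reads. Slc25a31, the ADP/ATP carrier of the testis, had 3 reads over the control rods, 3 over the Pkm2Rodko rods and at most 9 over a retina group.

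Ratios of related carriers within a library do not depend on the scale between fractions, and were chosen after the members' values had been seen. Per length, Slc25a5 over Slc25a4 was 1.30, 1.44 and 1.24 in the control rods and 0.725, 0.760 and 0.670 in control retina. In the Pkm2Rodko libraries it was 1.33, 1.52 and 1.51 in rods and 0.755, 0.692 and 0.685 in retina. Slc25a5 thus stood above Slc25a4 in all 6 rod libraries and below it in all 6 retina libraries. Of the 5 pairs computed, Slc25a39 over Slc25a40 had the lower mean in rods, at 14.7 ± 1.8 in control rods and 16.7 ± 4.9 in control retina (SD, n = 3) and at 14.0 ± 4.6 and 16.8 ± 3.7 in the Pkm2Rodko fractions, differences within the spread.

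The ATP-Mg/phosphate carriers, which change the adenine nucleotide content of the matrix, went in different directions. Slc25a25 had 5559, 5514 and 5417 scaled reads in control rods and 2156, 2558 and 2280 in control retina, and Pkm2Rodko libraries had 5625, 5673 and 5640 against 2588, 2454 and 2475. Slc25a23 had 2187, 2202 and 2024 in control rods and 3746, 3464 and 3813 in control retina. The rod libraries thus held the higher level of Slc25a25 and the lower level of Slc25a23, with no overlap of libraries. The log2 difference in control mice was 1.24 ± 0.07 for Slc25a25 (limma adjusted p = 7.11e-10) and −0.78 ± 0.08 for Slc25a23 (limma adjusted p = 5.24e-07). Slc25a25 over Slc25a23 per length was 1.73 ± 0.061 in control rods and 0.429 ± 0.059 in control retina (SD, n = 3). A neighbouring gene on the other strand, Naif1, shares 4.15% of the 50-base stretches of Slc25a25. Slc25a24, the third carrier of this type regulated by calcium, had 3.27, 2.79 and 3.18 scaled reads in control rods and 29.9, 17.99 and 63.8 in control retina. Every rod library lay below every retina library, with a log2 difference of −3.04 ± 0.59 (limma adjusted p = 0.000339). Slc25a41, the calcium-independent relative, had between 0 and 6.55 scaled reads in any rod library, and Slc25a54 had 0 reads in all 6 rod libraries and 7 over the 6 retina libraries, too few to place it lower in rods at a floor of 3 reads over the group. The call of Slc25a54 in Pkm2Rodko mice (limma adjusted p = 0.0435) became 0.0792 with rod and retina libraries of the same number paired as a block.

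The 2 carriers of pyrimidine nucleotides, which supply the matrix for synthesis of mitochondrial DNA and RNA, differed in opposite directions. Slc25a33 had 3482, 3361 and 3790 scaled reads in control rods and 1299, 1443 and 1339 in control retina, and Pkm2Rodko libraries had 3865, 3548 and 3346 against 1452, 1422 and 1454. Slc25a36 had 445, 434 and 393 in control rods and 791, 735 and 730 in control retina. The log2 difference in control mice was 1.38 ± 0.08 for Slc25a33 (limma adjusted p = 5.61e-10) and −0.83 ± 0.10 for Slc25a36 (limma adjusted p = 2.57e-06), and in Pkm2Rodko mice 1.31 and −0.85. Per length, Slc25a33 over Slc25a36 was 42.8 ± 5.5 in control rods and 9.22 ± 0.82 in control retina. Gm13068, on the other strand, shares 12.6% of the 50-base stretches of Slc25a33 and held 1408 reads in rods beside 17032.

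**Figure D3:**
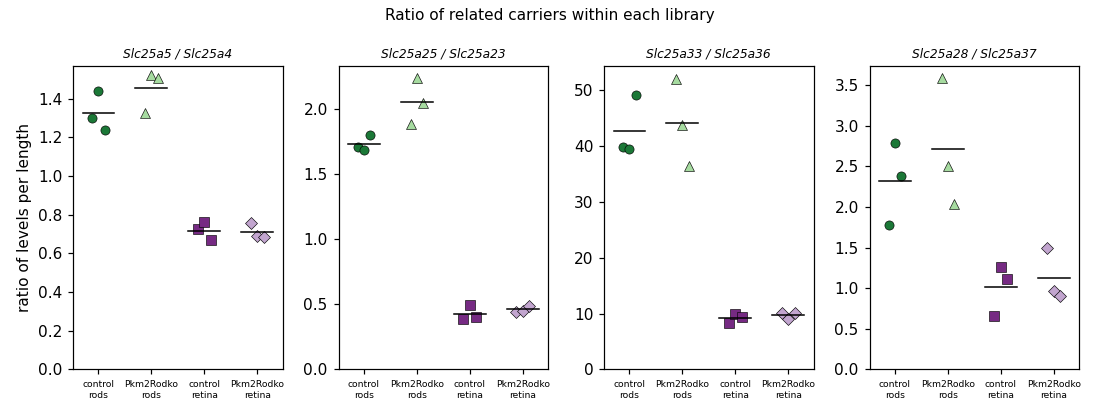
Ratio of the levels per length of 4 pairs of related carriers within each library (linear axes from 0), with points for the 3 libraries of a group and a line for their mean. For these 4 pairs the rod means lie above the retina means, as for Slc25a25 over Slc25a23 with means of 1.73 and 2.06 in rods and 0.429 and 0.461 in retina.

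The promoters of both pyrimidine nucleotide carriers, which differed in opposite directions between rods and retina, and of Slc25a25, among the members with the largest difference, are shown. RefSeq starts on GRCm38.p6, a build other than the GRCm39 of the deposited data, were used for sequence only, and each window runs from 250 bases before to 50 bases after the start on the minus strand. Slc25a33 lies at chr4:149774218-149774517, Slc25a36 at chr9:97110992-97111291, and the Slc25a25 start shown, 1 of 3 listed, at chr2:32424017-32424316. That Slc25a25 start was picked because it alone of the 3 held a motif searched for. Capitals mark the E-box CACGTG and the cyclic AMP response element (CRE) TGACGTCA.
Slc25a33: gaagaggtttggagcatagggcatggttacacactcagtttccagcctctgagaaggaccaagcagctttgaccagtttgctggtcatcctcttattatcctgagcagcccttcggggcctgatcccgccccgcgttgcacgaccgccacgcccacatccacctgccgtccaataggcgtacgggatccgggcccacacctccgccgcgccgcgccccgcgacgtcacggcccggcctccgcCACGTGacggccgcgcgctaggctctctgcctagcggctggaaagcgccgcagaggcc
Slc25a36: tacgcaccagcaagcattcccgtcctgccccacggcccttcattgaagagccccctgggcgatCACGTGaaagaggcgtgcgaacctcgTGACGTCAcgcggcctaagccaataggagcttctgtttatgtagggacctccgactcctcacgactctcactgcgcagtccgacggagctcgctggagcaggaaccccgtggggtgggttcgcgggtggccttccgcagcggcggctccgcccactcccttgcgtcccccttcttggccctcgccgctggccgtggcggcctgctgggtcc
Slc25a25: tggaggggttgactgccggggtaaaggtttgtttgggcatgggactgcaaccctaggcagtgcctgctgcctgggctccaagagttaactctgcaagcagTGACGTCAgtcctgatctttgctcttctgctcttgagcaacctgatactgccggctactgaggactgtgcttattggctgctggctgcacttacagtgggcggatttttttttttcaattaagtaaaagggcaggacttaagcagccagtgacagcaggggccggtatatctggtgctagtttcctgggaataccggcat
Searching both strands of the 43 promoters listed for 33 members, CACGTG was found in 7 promoters of 6 genes (Slc25a1, Slc25a14, Slc25a15, Slc25a31, Slc25a33 and Slc25a36) and in 7.15% of all 32851 promoters. TGACGTCA was found for Slc25a36, at 1 of the 3 listed starts of Slc25a25, and in 1.79% of all promoters. The CRX motif TAATCC, that of a photoreceptor transcription factor, was found in none of the 43 and in 7.06% of all promoters, and the NRF1 motif in none and in 0.971%. The YY1 motif AAGATGGCG was found for Slc25a3 alone and in 1.40% of all. Median GC content was 59.7% in the member promoters and 52.7% in all promoters, and the motif shares were not adjusted for it. Motif matches are letters in a window and say nothing of binding. The E-box was found both for Slc25a33, higher in rods, and for Slc25a36, lower in rods.

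Among the other nucleotide and cofactor carriers, Slc25a42 and Slc25a51 were lower in rods in both genotypes. Slc25a51, the NAD carrier, had a log2 difference of −0.76 ± 0.09 (limma adjusted p = 1.88e-06) in control mice. Slc25a42, a coenzyme A carrier, had 283, 305 and 332 scaled reads in control rods and 389, 453 and 515 in control retina, a log2 difference of −0.55 ± 0.12 (limma adjusted p = 0.00116). No rod library reached the lowest retina library for these genes. Slc25a17, a peroxisomal carrier of cofactors, Slc25a32, which carries folate or FAD, and Slc25a47 were higher by TMM at 0.35, 0.36 and 0.48, and at −0.20, −0.19 and −0.071 by total reads. Slc25a16, linked to coenzyme A, gave −0.035 by TMM with a 95% interval from −0.24 to 0.17, and −0.58 by total reads (limma adjusted p = 6.12e-05).

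The carboxylate carriers split in the same way. Slc25a1, which exports citrate to the cytosol, had 29.5, 21.4 and 12.7 scaled reads in control rods, 23.4, 14.9 and 16.1 in Pkm2Rodko rods, 186, 180 and 256 in control retina and 217, 191 and 157 in Pkm2Rodko retina. The lowest retina library held more than the highest rod library by a wide margin. The log2 difference was −3.29 ± 0.29 in control mice (limma adjusted p = 8.54e-08) and −3.32 ± 0.29 in Pkm2Rodko mice, while the 8 marker lists of cells other than rods and cones had medians between −3.14 and −2.44. How much of the Slc25a1 signal in the rod libraries came from other cells was not tested. Slc25a10, the dicarboxylate carrier, had 452, 354 and 491 scaled reads in control rods and 227, 245 and 263 in control retina, a log2 difference of 0.81 ± 0.13 (limma adjusted p = 6.95e-05), and by total reads 0.26 (limma adjusted p = 0.0948). Slc25a21, the oxodicarboxylate carrier, had 10 reads over the control rods and a log2 difference of −2.72 ± 0.72 (limma adjusted p = 0.00399).

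Of the 13 carriers of amino acids, carnitine, methyl donors and glutathione, 12 were tested, and 5 were higher and 4 lower in rods in both genotypes, beside 23.5% and 35.5% of all genes in control mice. Slc25a29, which carries basic amino acids, had 530, 456 and 571 scaled reads in control rods and 216, 235 and 239 in control retina, a log2 difference of 1.17 ± 0.11 (limma adjusted p = 3.23e-07). Slc25a38, the glycine carrier needed for heme synthesis, differed by 1.09 ± 0.12 (limma adjusted p = 1.73e-06), and its rod libraries, between 742 and 1068, lay above its retina libraries, between 384 and 509. Both were called higher in both genotypes under every scaling. Slc25a26, the carrier of S-adenosylmethionine, differed by 0.77 ± 0.15 (limma adjusted p = 0.000348), and shares 1.92% of its 50-base stretches with Lrig1 on the other strand, which held 9385 reads in rods beside 1288. The glutathione carriers Slc25a39 and Slc25a40 were both lower in rods, by −1.05 ± 0.20 (limma adjusted p = 0.000235) and −0.89 ± 0.21 (limma adjusted p = 0.00182). Slc25a45, a carrier linked to methylated amino acids, had 1 read over the control rods and 15.0, 14.4 and 11.6 scaled reads in control retina. The ratio of 1 to 50 reads is a 31.3-fold lower level, with an exact 95% counting interval from 5.37 to 1262, and the call had a limma adjusted p of 0.000215.

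Slc25a44 had 1608, 1632 and 1728 scaled reads in control rods and 1405, 1499 and 1426 in control retina, a log2 difference of 0.20 ± 0.08 (limma adjusted p = 0.0352), and −0.35 by total reads (limma adjusted p = 0.000914). Slc25a22 differed by −0.23 ± 0.08 (limma adjusted p = 0.016). The ornithine carrier Slc25a15 gave −0.32 with a 95% interval from −0.69 to 0.047, and −0.87 by total reads (limma adjusted p = 0.00054). The glutamate carrier Slc25a18 and the ornithine carrier Slc25a2, with 15 and 23 reads over the control rods, passed no test in either genotype. In the unpaired fit several of these calls rested on single libraries. That of Slc25a22 in control mice was lost without control rods 1 (limma adjusted p = 0.0902) or control retina 3 (limma adjusted p = 0.0814). That of Slc25a20, the carnitine and acylcarnitine carrier, at 0.58, was lost without control rods 1 or 3 or any control retina library, with values between 0.34 and 0.66. With rods and retina paired by number, Slc25a20 had a limma adjusted p of 0.000658 by TMM. Its TMM-scaled reads in rods exceeded those in retina in every pair of both genotypes. By total reads Slc25a20 gave 0.033 in control mice (limma adjusted p = 0.918) and 0.19 in Pkm2Rodko mice (limma adjusted p = 0.478). That of Slc25a44 was lost without control rods 2 or 3 or control retina 1 or 3, at values between 0.17 and 0.19, and in Pkm2Rodko mice without any library but rods 1, at values between 0.15 and 0.21. That of Slc25a47 was lost without control rods 1 or 2 or control retina 1 or 3, at values between 0.29 and 0.48. The paired fit gave limma adjusted p-values of 0.0059 for Slc25a22, 0.0204 for Slc25a44 and 0.0215 for Slc25a47 in control mice. In Pkm2Rodko mice the call of Slc25a45 (−1.91) was lost without Pkm2Rodko rods 2 (−1.21) or Pkm2Rodko retina 1 (−1.69).

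The mitoferrins differed from each other. Slc25a37, which is known for iron import in erythroid cells, had 460, 244 and 367 scaled reads in control rods and 1097, 686 and 818 in control retina, and its log2 difference was −1.30 ± 0.22 (limma adjusted p = 9.51e-05). Slc25a28, the widely expressed mitoferrin, had 511, 423 and 544 in control rods and 451, 539 and 566 in control retina. Its libraries overlapped, with a difference of −0.074 (95% interval −0.34 to 0.19) by TMM. By total reads the difference was −0.62 (limma adjusted p = 0.000308). Per length, Slc25a28 over Slc25a37 was between 1.78 and 2.79 in the control rods and between 0.659 and 1.26 in control retina. Gm16867 and other genes share 6.99% of the 50-base stretches of Slc25a37. Rows of the genes sharing most held 517 reads in rods beside 1578 for Slc25a37, and 565 in retina beside 6270. Their part in these values was not tested.

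Of the uncoupling protein relatives, Slc25a30 was lower in rods, with 31.1, 41.9 and 46.1 scaled reads in control rods against 95.6, 89.96 and 117 in control retina (log2 difference −1.33 ± 0.26, limma adjusted p = 0.000416). Slc25a14 had 291, 222 and 270 against 303, 305 and 251, which overlapped, and gave −0.13 with a 95% interval from −0.43 to 0.16. Slc25a27 gave −0.080 with an interval from −0.32 to 0.16. By total reads Slc25a14 gave −0.68 (limma adjusted p = 0.00032) and Slc25a27 −0.63 (limma adjusted p = 0.000255) in control mice. Neither gene passed the test by TMM in Pkm2Rodko mice. The Pkm2Rodko rod libraries of Slc25a27 (383, 349 and 402) nevertheless lay below those of retina (412, 405 and 415).

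Slc25a46, an outer membrane protein involved in mitochondrial dynamics, gave −0.00085 by TMM in control mice with a 95% interval from −0.18 to 0.18. By total reads it gave −0.55 (limma adjusted p = 5.77e-05). Of the carriers without a settled substrate, Slc25a35 had 707, 577 and 711 scaled reads in control rods and 344, 362 and 310 in control retina (log2 difference 0.97 ± 0.13, limma adjusted p = 1.01e-05). Rangrf and other genes share 25.1% of its 50-base stretches, so its level is uncertain. Slc25a53 was lower, by −0.92 ± 0.15 (limma adjusted p = 6.84e-05). Slc25a43 had 0 reads over the 3 control rod libraries and 15 over the control retina libraries, at least 3.13-fold lower in rods when 3 reads over the group are taken as the floor.

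Slc25a34 varied between retina libraries, with 19.95, 4.498 and 35.5 scaled reads in controls and 20.5, 15.2 and 7.58 in Pkm2Rodko. The 10 pigment epithelium markers, none at 0, summed to 7951, 1833 and 14294 in the same control libraries and to 8555, 10279 and 3345 in the Pkm2Rodko libraries. In controls both were lowest in library 2 and highest in library 3, an order found for 8 members, namely Slc25a1, Slc25a4, Slc25a23, Slc25a24, Slc25a30, Slc25a34, Slc25a39 and Slc25a51. In Pkm2Rodko retina none of these 8 members had the order of the markers, and 6 other members did. The share of all genes in either order was not computed, and 3 libraries allow few orders, so these counts show no link to the markers. The part of pigment epithelium RNA in these values was not tested. The call of Slc25a34 in control mice (−2.08, limma adjusted p = 0.0208, and 0.00628 with rods and retina paired) was lost without control rods 1 or 2 or control retina 1 or 3, at values between −1.89 and −1.48.

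The genotype comparison asked whether loss of Pkm2 in rods changed carrier RNA, and used the deposited values of each fraction. In rods 0 of the 41 members tested passed an adjusted p of 0.05 in limma, where 0.0194% of all 20658 genes did. At an unadjusted p under 0.05 limma found 1 member, against 4.77% of all genes, edgeR found 1 and DESeq2 found 0. The members' log2 differences had a median of −0.026, with 19 positive and 22 negative, and the median of all genes was 0.0060. Libraries did not overlap between genotypes for 4 of 41 members, or 9.76%, and for 9.89% of all genes. Slc25a25 and Slc25a26 were higher in this way (4.49% of all genes) and Slc25a23 and Slc25a41 lower (5.40%).

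The member with an unadjusted p under 0.05 was Slc25a41, with deposited values of 5.1, 3.6 and 1.2 in control rods and 0, 1.1 and 0 in Pkm2Rodko rods. These are 10 reads over the controls and 1 over the Pkm2Rodko rods, a 10.8-fold ratio with an exact 95% counting interval from 1.54 to 468.5, and the limma adjusted p was 0.932. Slc25a23 had 1712, 1727 and 1569 in controls and 1564, 1348 and 1459 in Pkm2Rodko rods, a difference of −0.20 ± 0.09 (limma adjusted p = 0.932), with every Pkm2Rodko library below every control. Slc25a26 had 165, 196 and 213 in controls and 223, 241 and 216 in Pkm2Rodko rods, a difference of 0.25 ± 0.14 (limma adjusted p = 0.932), and its groups did not overlap either. In the same libraries marker lists of other cells had negative median genotype differences in rods. The medians were −0.60 for 13 amacrine, −0.35 for 12 Müller and −0.31 for 16 bipolar markers. Of these markers limma called none, and 7, 6 and 4 had an unadjusted p under 0.05, beside 4.77% of all genes. The other lists ran from −0.39 for endothelial to −0.098 for cone and −0.089 for microglia markers. At an unadjusted p under 0.05 limma found 3 of 8 endothelial, 1 of 12 cone and 0 of 10 microglia markers. The median of the 20 rod markers was 0.051. The part of other cells in the values of Slc25a41 and Slc25a23 was not tested. Slc25a25 over Slc25a23 per length was 1.71, 1.69 and 1.802 in control rods and 1.89, 2.24 and 2.05 in Pkm2Rodko rods, a ratio chosen after seeing the values and not tested.

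For the abundant carriers the 95% intervals were narrow. The genotype difference in rods was 0.044 for Slc25a5 (−0.12 to 0.21), −0.088 for Slc25a4 (−0.29 to 0.12), −0.026 for Slc25a3 (−0.20 to 0.15), 0.024 for Slc25a33 (−0.16 to 0.21) and 0.047 for Slc25a25 (−0.12 to 0.21). Pkm in the same fit differed by −1.20 ± 0.08 (limma adjusted p = 5.36e-05). In simulated data with 200 changed genes the test recovered 89.3% of those changed by 1 on the log2 scale and 15.2% of those changed by 0.5. These are shares over all changed genes, and recovery at the abundance of these carriers was not computed. The changed genes were drawn only from genes with many reads in rods. The spread between simulated libraries was fixed in advance, not estimated from these data, so the shares need not hold here or for members with few reads.

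**Figure D4:**
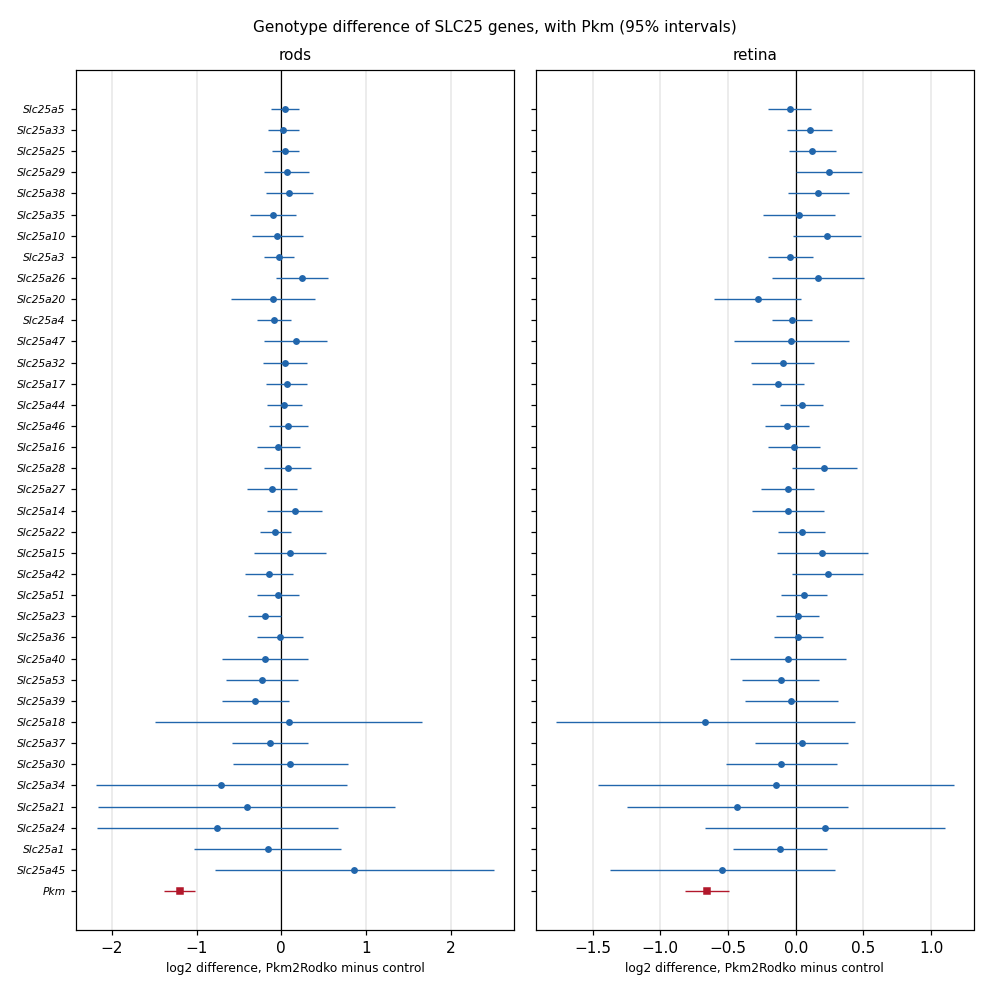
The log2 difference of Pkm2Rodko minus control in rods (left) and retina (right) for the SLC25 genes with a mean of at least 10 reads in 1 or more groups, with 95% intervals from limma on the deposited values. The intervals of these SLC25 genes include 0, except for Slc25a29 in retina, while Pkm (square) lies at −1.20 in rods and −0.65 in retina.

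In retina 0 of 43 members passed in limma, where 0.00391% of all 25590 genes did. At an unadjusted p under 0.05 limma found 1 member, against 4.18% of all genes, and edgeR and DESeq2 found 0. The median was 0.014, with 23 positive and 20 negative. Slc25a29 had 253, 278 and 283 in controls and 351, 316 and 302 in Pkm2Rodko retina, a difference of 0.25 ± 0.11 (limma adjusted p = 0.947), and every Pkm2Rodko library was above every control. Slc25a10 had 266, 290 and 311 against 369, 344 and 306, and Slc25a42 had 456, 536 and 609 against 636, 691 and 552, both with overlapping libraries and differences of 0.23. Libraries did not overlap for 3 of 43 members (6.98%) and for 9.29% of all genes. Slc25a29 was higher in this way (4.53% of all genes) and Slc25a17 and Slc25a46 lower (4.76%).

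Whether the genotype difference itself differed between rods and retina was tested as an interaction, which 0 of 43 members passed in limma, as did 0.00% of all genes. At an unadjusted p under 0.05 limma and edgeR each found 2 members and DESeq2 1, against 4.41% of all genes in limma. The limma members were Slc25a41, with 1 read over the Pkm2Rodko rods, at −1.83 ± 0.75, and Slc25a42, at −0.37 ± 0.17, each with a limma adjusted p of 0.978. In the same simulated data, with the same limits, this test recovered 78.3% of genes changed by 1.5 on the log2 scale and 17.9% of those changed by 1.

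Genes that work with the carriers were counted for comparison. Of 15 genes of the import machinery for carriers, 10 were higher and 1 lower in control rods than in control retina, beside 23.5% and 35.5% of all genes, with a median log2 difference of 0.43 beside −0.37 over all genes, from Timm10b at −0.47 to Tomm22, a receptor of the outer membrane, at 1.06. In Pkm2Rodko mice 11 were higher and 0 lower by limma, beside 23.9% and 35.1% of all genes. Of 5 family members with other symbols, 0 were higher and 2 lower in control mice, beside the same 23.5% and 35.5%. Their median was −1.15, from the uncoupling protein Ucp2 at −2.45 to Mtch2 at 0.16. In Pkm2Rodko mice 0 were higher and 2 lower by limma, with a median of −0.43 beside −0.32 over all genes. Of 20 other mitochondrial transport genes, 8 were higher and 9 lower in control mice, beside the same 23.5% and 35.5%, with a median of −0.043, from the serine transporter Sfxn1 at −3.43 to Letm1, an ion exchanger of the inner membrane, at 0.96. None of these genes passed in either genotype comparison by limma, and at an unadjusted p under 0.05 there were 0 in rods and 1, Sfxn2, in retina.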

How the data were processed

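The deposited table gives a signal for every gene in 12 libraries. The authors had divided reads by DESeq2-type size factors, set within each fraction, and kept 1 decimal. The submitters' processing notes name CASAVA 1.8.2, HISAT2, DESeq2, edgeR and GRCm39, without roles, and the counter and strand setting are not given in the sources used here. Dividing by the smallest step gave whole reads (within 0.05) for 100% of positive values. The members and lists were chosen with earlier results of these data known. Members were named, except 1 that enters the counts and is not reported here, with values per library for the highest member of each functional group in control rods, those with the largest difference between fractions in each direction, and the 3 with the smallest p in each genotype comparison. Others, and the ratios of carriers, were added after their values were seen.

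Genotypes were compared within a fraction with limma 3.58.1 (R 4.3.3, variance trend) on log2(deposited value + 1), for genes with a mean of at least 1 in 1 group, with Benjamini-Hochberg adjustment over all genes tested. Fractions and the interaction were fitted over 12 libraries on TMM-scaled reads (edgeR 4.0.16) with the same pseudocount, so fold changes of low genes are uncertain. Against edgeR's test they were smaller for some low genes and larger for others. In control mice Slc25a45 gave −3.41 in limma and −4.61 in edgeR, and Slc25a21 −2.72 and −2.22. Alternatives were edgeR's quasi-likelihood test, DESeq2 1.42.0, other scalings, filters and pseudocounts, the replicate block and leaving out each library. The scripts were tested on simulated data. Exon lengths and shared 50-base stretches came from GENCODE vM21 (GRCm38), which covers every member. Deviations of rod and retina libraries of the same number and genotype correlated in all 6 pairs (r between 0.27 and 0.56), so the numbers pair the fractions. Depth was 13458890 to 22790074 reads per library, and 3 libraries per group set the precision. No replicate pair agreed within sampling noise.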

Additional observations from a re-analysis of the deposited data

How the results depend on the processing

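The genotype and interaction counts stayed at 0 in limma, edgeR and DESeq2 under every alternative run, including leaving out each library and the replicate block. The numbers do not pair control with Pkm2Rodko libraries, where the block left 0 of 41 members in rods and 0 of 43 in retina. For rods against retina the block of paired libraries kept 15 higher and 17 lower members in control mice and 15 and 18 in Pkm2Rodko mice, and the only call it changed was Slc25a54. Leaving out single libraries gave 12 to 14 higher and 15 to 18 lower members in control mice, and 14 to 15 and 17 to 19 in Pkm2Rodko mice. Scaling by total reads or using the deposited values gave 7 higher members in control mice and 6 in Pkm2Rodko mice. Requiring 10 reads in every library, which tests fewer genes, gave 11 and 12 lower members. Shares of all genes called under these alternatives are not given here, so the counts describe the members alone. By total reads the median level per length in control rods was 3.35.

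For members called by TMM, directions turned only under total reads and the deposited values, given in that order. In control mice Slc25a4 gave −0.029 and −0.074, Slc25a17 −0.20 and −0.24, Slc25a32 −0.19 and −0.23, Slc25a44 −0.35 and −0.40, and Slc25a47 −0.071 and −0.12, and Slc25a20 gave −0.012 by the deposited values. In Pkm2Rodko mice Slc25a4 gave −0.11 and −0.13, Slc25a10 −0.045 and −0.064, Slc25a17 −0.028 and −0.047, Slc25a32 −0.075 and −0.094, and Slc25a44 −0.39 and −0.41. Slc25a14 and Slc25a46, at 0.087 and 0.15 by TMM in Pkm2Rodko mice and not called, also turned. Slc25a14 gave −0.50 and −0.51 and Slc25a46 −0.43 and −0.45, each with a limma adjusted p under 0.05. The deposited values scale each fraction on its own, so they do not put rods and retina on 1 scale. Slc25a44 in both genotypes and Slc25a47 in control mice were not called by edgeR or DESeq2, nor Slc25a54 by edgeR. With a pseudocount of 0.1, Slc25a20 and Slc25a34 in control mice and Slc25a45 in Pkm2Rodko mice were no longer called. Slc25a54 was also lost without any 1 Pkm2Rodko rod library or Pkm2Rodko retina 3. Members under 10 reads per group limit what depth can show.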
